A study of Mus musculus with 9 samples.

Results

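The genes that encode the proteins of the cytosolic ribosome were examined for Hdac1 and Hdac2 binding in mouse haemogenic endothelium. The gene set held every protein-coding mm10 gene whose symbol is Rpl or Rps followed by a number, with an optional a, x, y or l and a further number, together with Rpsa, Rplp0, Rplp1 and Rplp2, and without the Rps6k kinases. It came to 84 of 21887 protein-coding genes, of which 52 belong to the large and 32 to the small ribosomal subunit. Among the 84 were 7 genes that encode paralogues of a ribosomal protein (Rpl10l, Rpl22l1, Rpl32l, Rpl39l, Rpl3l, Rpl7l1 and Rps27l). A gene was called bound in a list when a peak overlapped the 1000 bp on either side of one of its annotated ends by 1 bp or more.

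The cells were haemogenic endothelium, the endothelium from which blood cells arise, differentiated in culture from untreated C57BL/6 ES cells. Chromatin of each of 3 lines was precipitated with an Hdac1 antibody (Diagenode) and with an Hdac2 antibody (abcam), which gave 6 peak lists, 1 for each antibody in each line. The lines were Bry, at passage 16 to 19, and Hd1_loxlox and Hd2lox, both at passage 25 to 30. The labels give no genotype beyond the name of each line and no agent, so line, passage and library cannot be told apart. The 3 lines are the replicates of each antibody (n = 3), with 1 library per antibody and line. Nothing in the labels says that the libraries came from separate experiments, so spreads and p-values measure differences between libraries that may be technical. Peak positions do not show whether the cells were haemogenic endothelium. In bulk chromatin, a site bound in fewer cells and a site bound less in each cell cannot be told apart.

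Over the whole genome the Bry, Hd1_loxlox and Hd2lox lists held 7671, 7490 and 7519 peaks for Hdac1. For Hdac2 they held 9279, 5161 and 9082 peaks. The lists carry no peak height or read count, so depth is unknown and an absent peak may reflect too few reads. The Hd1_loxlox Hdac2 list stood apart, with a peak at the ends of 594 protein-coding genes, against 2946 to 7532 in the other 5 lists. Results that rest on it are also given without it.

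Ribosomal proteins are made in matched amounts from many genes scattered over the chromosomes, and their mRNAs are among the most abundant in growing cells. Most of these genes are short and start within a run of pyrimidines, the 5′ terminal oligopyrimidine (TOP) motif through which mTOR signalling controls their translation. Hdac1 and Hdac2 are closely related histone deacetylases that remove acetyl groups from histones within the Sin3, NuRD and CoREST complexes. They are found at promoters of active as well as silent genes. Loss of 1 copy of certain ribosomal protein genes causes Diamond-Blackfan anaemia in humans, a failure of red cell production.

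Promoters are shown for the members with a promoter entry that were in the most lists (Rpl14 and Rps19, in 5, and Rplp0, first by alphabet of those in 4) and for members in no list (Rpl10, Rpl10l and Rpl13a), because these are the ends of the range that the results describe. At its start Rplp0 was bound in 3 lists, since its Hd2lox Hdac1 peak lies beyond the far end of the gene, beside Gcn1. Each sequence runs 5′ to 3′ on the strand of the gene, from 250 bases before the annotated start to 20 bases after it, and was taken from RefSeq on the GRCm38.p6 build. Capitals mark the ETS core CCGGAA, the Sp1 box GGGCGG and either of them on the opposite strand (TTCCGG or CCGCCC). They also mark a pyrimidine run at the annotated start, from that start onward only. The windows lie at chr9:120571267-120571536 for Rpl14 (plus strand), chr7:24884342-24884611 for Rps19 (plus), chr5:115559217-115559486 for Rplp0 (plus), chrX:74270566-74270835 for Rpl10 (plus), chr12:66284382-66284651 for Rpl10l (minus) and chr7:45128726-45128995 for Rpl13a (minus).
Rpl14: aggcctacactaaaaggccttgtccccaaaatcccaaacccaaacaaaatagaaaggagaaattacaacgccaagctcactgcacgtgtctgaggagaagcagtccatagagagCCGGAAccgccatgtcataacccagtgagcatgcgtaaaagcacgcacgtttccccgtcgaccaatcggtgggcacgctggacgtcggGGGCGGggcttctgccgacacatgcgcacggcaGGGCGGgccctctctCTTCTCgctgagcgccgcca
Rps19: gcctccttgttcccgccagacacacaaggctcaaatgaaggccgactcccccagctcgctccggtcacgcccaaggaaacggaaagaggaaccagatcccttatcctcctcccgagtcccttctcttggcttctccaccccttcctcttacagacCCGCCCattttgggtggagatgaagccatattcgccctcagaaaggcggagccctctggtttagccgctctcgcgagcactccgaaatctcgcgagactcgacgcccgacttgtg
Rplp0: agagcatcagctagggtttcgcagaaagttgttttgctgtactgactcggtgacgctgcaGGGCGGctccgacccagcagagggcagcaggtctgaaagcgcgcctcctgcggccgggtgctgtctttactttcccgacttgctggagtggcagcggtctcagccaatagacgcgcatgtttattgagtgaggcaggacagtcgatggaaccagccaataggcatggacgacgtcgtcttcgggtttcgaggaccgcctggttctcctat
Rpl10: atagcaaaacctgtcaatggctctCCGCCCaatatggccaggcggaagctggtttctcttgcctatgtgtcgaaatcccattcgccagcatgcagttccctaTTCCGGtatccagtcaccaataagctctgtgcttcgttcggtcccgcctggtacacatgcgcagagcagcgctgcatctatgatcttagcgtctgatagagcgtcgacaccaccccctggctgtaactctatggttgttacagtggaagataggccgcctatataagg
Rpl10l: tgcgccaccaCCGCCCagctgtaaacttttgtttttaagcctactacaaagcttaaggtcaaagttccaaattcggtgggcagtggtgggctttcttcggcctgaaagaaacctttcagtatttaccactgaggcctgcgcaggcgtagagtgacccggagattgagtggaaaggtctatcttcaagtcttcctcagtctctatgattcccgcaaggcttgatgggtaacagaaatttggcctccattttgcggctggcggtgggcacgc
Rpl13a: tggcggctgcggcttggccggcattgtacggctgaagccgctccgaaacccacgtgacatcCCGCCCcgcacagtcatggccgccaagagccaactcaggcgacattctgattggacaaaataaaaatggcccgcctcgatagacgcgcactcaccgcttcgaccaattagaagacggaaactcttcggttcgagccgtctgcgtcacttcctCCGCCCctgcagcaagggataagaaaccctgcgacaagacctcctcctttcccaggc

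The Rpl14 window held an ETS core, a pair of Sp1 boxes and a pyrimidine run of 6 letters, counted from the annotated start onward. The bases just before that start are pyrimidines too, so the unbroken run is longer and begins upstream. The windows shown for Rps19 and Rplp0 held a single Sp1 box each and no pyrimidine run by the rule used. Rps19 has other annotated starts further in, and the outermost is shown. The window of its start at 24884913 held an ETS core and an Sp1 box. Rpl10 held an ETS core and an Sp1 box, Rpl10l an Sp1 box, and Rpl13a a pair of Sp1 boxes. Each of the unbound members shown thus held at least 1 of these motifs. At Rpl13a a run of pyrimidines also begins just after the annotated start, which the rule does not count. A shorter run at Rplp0 lies further after the annotated start and is not counted either.

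The first comparison asked in which lists ribosomal protein genes were bound. Hdac1 was at most of them in Bry and in Hd1_loxlox and at few in Hd2lox. Hdac2 was at fewer than Hdac1 in each line, and the gap was widest in Hd1_loxlox. Hdac1 bound 55 of the 84 genes in Bry (65.5%, 95% Wilson interval 54.8 to 74.8%), 53 in Hd1_loxlox (63.1%, 52.4 to 72.6%) and 14 in Hd2lox (16.7%, 10.2 to 26.1%). Hdac2 bound 39 in Bry (46.4%, 36.2 to 57.0%), 1 in Hd1_loxlox (1.19%, 0.210 to 6.44%) and 6 in Hd2lox (7.14%, 3.31 to 14.7%). These intervals cover counting error alone.

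Of all protein-coding genes, 31.9% were bound in the Hdac1 list of Bry, 31.7% in that of Hd1_loxlox and 24.3% in that of Hd2lox. The Hdac2 lists bound 34.4% in Bry, 2.71% in Hd1_loxlox and 13.5% in Hd2lox. Set against the 21803 other protein-coding genes, the share of ribosomal protein genes bound by Hdac1 was 33.7 percentage points higher in Bry and 31.5 points higher in Hd1_loxlox. In Hd2lox the same difference, ribosomal protein genes minus other genes, was -7.65 points. The Hdac2 differences were 12.1 points for Bry, -1.53 for Hd1_loxlox and -6.34 for Hd2lox. The mean difference was 19.2 ± 23.3 points for Hdac1 and 1.40 ± 9.54 points for Hdac2 (SD, n = 3 lines), so in both cases the spread between lines exceeded the mean. Without Bry the Hdac1 mean was 11.9 points and without Hd2lox 32.6, and without the Hd1_loxlox Hdac2 list the Hdac2 mean was 2.86. In both Bry lists ribosomal protein genes had a higher share than other genes, though for Hdac2 the difference was 2.86 points with peaks of at least the median width. In both Hd2lox lists their share was lower, but its intervals included the shares over all genes.

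Within each line the share of ribosomal protein genes bound by Hdac1 exceeded that bound by Hdac2, by 19.0 points in Bry, by 61.9 in Hd1_loxlox and by 9.52 in Hd2lox (mean 30.2 ± 27.9, SD, n = 3). The difference of the antibody means was 21.6 points without the Hd1_loxlox Hdac2 list and 14.3 without both Hd1_loxlox lists. For other protein-coding genes the same differences were -2.56, 28.8 and 10.8 points. In Bry the Hdac1 surplus at ribosomal protein genes thus had no counterpart in the other genes, while in Hd2lox the differences lay close together. The wide gap in Hd1_loxlox was measured against the Hdac2 list that held few gene ends of any kind.

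**Figure D1:**
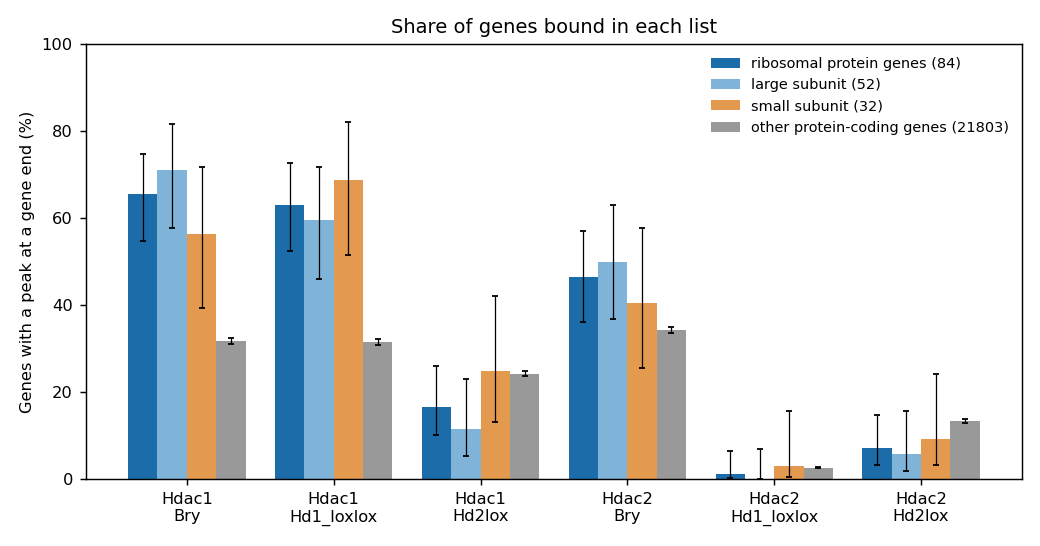
Share of genes bound (vertical axis, %) in each of the 6 peak lists (horizontal axis), for all 84 ribosomal protein genes, the 52 large and 32 small subunit genes and the 21803 other protein-coding genes. Bars are single lists and lines are 95% Wilson intervals, which cover counting error only; the ribosomal bars stand above the grey bar in both Bry lists and in Hd1_loxlox Hdac1, where the share over all 84 was 65.5%, 46.4% and 63.1%.

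A gene end can be either the start or the stop of a gene. RefSeq promoter windows gave the strand and the start of 64 of the 84 genes and of 17492 protein-coding genes in all. Counting only peaks within 1000 bp of an annotated start, Hdac1 bound 41 of the 64 in Bry (64.1%), 44 in Hd1_loxlox (68.8%) and 10 in Hd2lox (15.6%). The shares over all genes with a start were 32.9%, 32.7% and 24.7%. Hdac2 bound 30 of the 64 in Bry (46.9%), 1 in Hd1_loxlox (1.56%) and 3 in Hd2lox (4.69%), beside 35.5%, 1.87% and 13.4% over all genes. At starts, as at gene ends, the Hdac1 lists of Bry and Hd1_loxlox held the most ribosomal protein genes and the Hdac2 list of Hd1_loxlox the fewest.

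Most peaks sat on the starts of these genes and reached into them, as peaks at other genes did in most lists. Of the members with an annotated start that had a peak at a gene end, the peak covered the start in 37 of 40 for Hdac1 in Bry, 40 of 41 in Hd1_loxlox and 7 of 9 in Hd2lox. For Hdac2 it covered the start in 26 of 29 in Bry, 1 of 1 in Hd1_loxlox and 3 of 4 in Hd2lox. The midpoint of the peaks that covered a start lay a median of 143.5 bp downstream of it for Hdac1 in Bry and 226 bp in Hd1_loxlox, against 89.5 and 140.5 bp at other genes. In Hd2lox the median was 124.5 bp at ribosomal protein genes and 170.0 bp at other genes. In the Bry Hdac2 list the medians were 86.5 bp and 76.5 bp. The displacement into the gene was thus larger at ribosomal protein genes than elsewhere in both Hdac1 lists with many such peaks, and not in the Hdac1 list of Hd2lox. These medians describe peaks, which are not replicates, and were not tested.

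**Figure D2:**
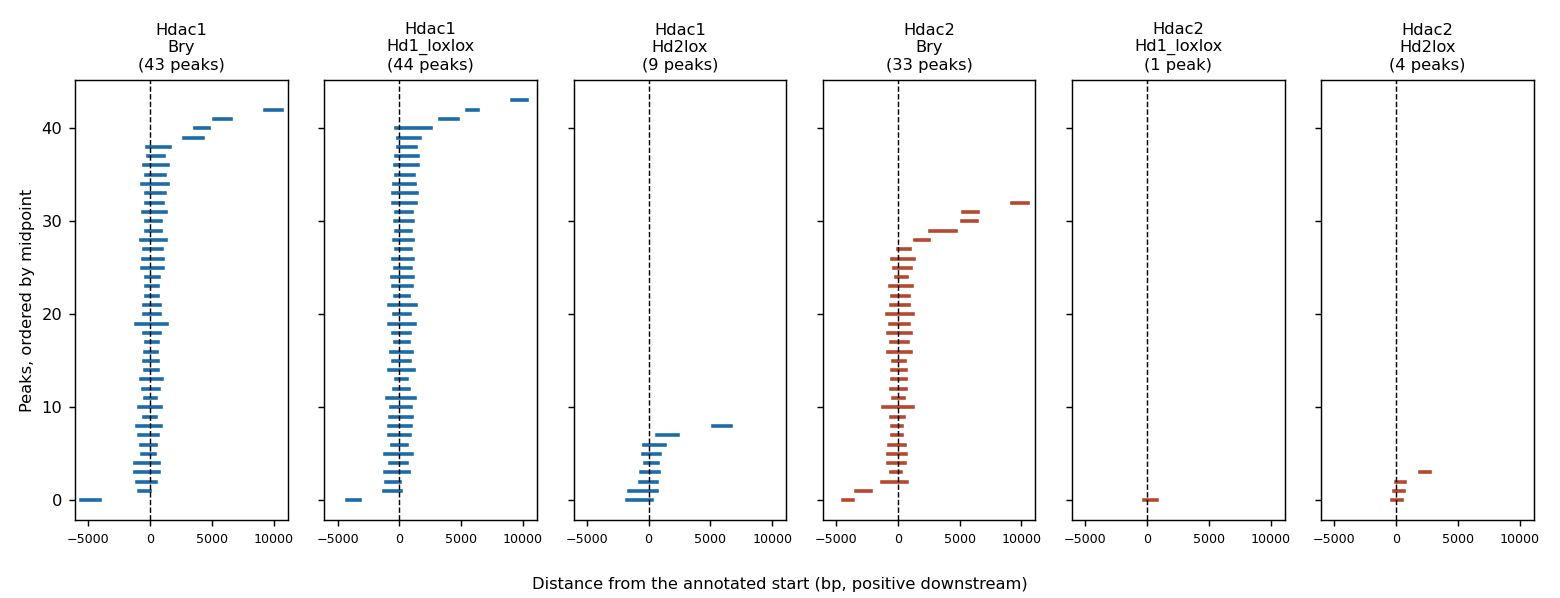
Peaks at ribosomal protein genes with an annotated start, 1 panel per list, drawn as horizontal bars from their first to their last base (horizontal axis, bp from the start, positive into the gene) and stacked by midpoint (vertical axis, rank). Most bars cross the dashed line at the start, as in 40 of 41 genes for Hdac1 in Hd1_loxlox (97.6%, beside 89.8% at other protein-coding genes). The others lie inside or beyond the gene or upstream of its start.

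The next comparison asked which genes recurred. At least 2 of the 3 Hdac1 lists held 48 of the 84 genes (57.1%), beside 30.2% of all protein-coding genes. At least 2 of the 3 Hdac2 lists held 4 (4.76%), beside 10.6% of all. No ribosomal protein gene was in all 6 lists or in all 3 Hdac2 lists, while 11 (13.1%) were in all 3 Hdac1 lists. Of all protein-coding genes 0.448% were in all 6 lists, 0.603% in all 3 Hdac2 lists and 14.6% in all 3 Hdac1 lists, the last close to the share of members. In no list at all were 19 genes (22.6%), beside 52.2% of all protein-coding genes. Both counts of recurrence depend on the lines, and the Hdac1 count rests on Bry and Hd1_loxlox. Without Bry, both Hdac1 lists held 13 of the 84 genes, beside 3763 of the 21803 other protein-coding genes. Without Hd1_loxlox they held 11, beside 3628 of the others. In these pairs, which include Hd2lox, the share of members was slightly lower than that of other genes. Without Hd2lox both lists held 46 of the 84, beside 5515 of the others, a higher share of members.

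Rpl14, Rps19 and Rpl7 were the genes in 5 lists, all but Hdac2 in Hd1_loxlox. They are 3.57% of the members, a smaller share than the 6.71% of all protein-coding genes that were in 5 lists. Rpl14 encodes a protein of the large subunit and lies on chromosome 9 at 120571517 to 120574653. Its Hdac1 peaks ran from 120570772 to 120572024 in Bry, from 120570748 to 120572119 in Hd1_loxlox and from 120571162 to 120572813 in Hd2lox. Its Hdac2 peaks ran from 120570810 to 120572089 in Bry and from 120571306 to 120572169 in Hd2lox. All 5 peaks covered the start, and the 719 bp common to them, 120571306 to 120572024, include the start and the pyrimidine run shown in the Rpl14 sequence. The Hdac2 peak of Hd2lox was the narrowest, at 864 bp.

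Rps19, the small subunit protein most often mutated in Diamond-Blackfan anaemia, lies on chromosome 7 at 24884592 to 24889811. Its Hdac1 peaks were 1707 bp wide in Bry, 1750 bp in Hd1_loxlox and 1385 bp in Hd2lox, and its Hdac2 peaks 1387 bp in Bry and 784 bp in Hd2lox. All covered the start, and they had 683 bp in common, 24884455 to 24885137. In Bry and in Hd2lox the Hdac1 peak was wider than the Hdac2 peak.

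Rpl7, a large subunit protein, lies on chromosome 1 at 16101295 to 16104433. Its Hdac1 peaks were 2587 bp wide in Bry, 2723 bp in Hd1_loxlox and 2160 bp in Hd2lox, and its Hdac2 peaks 1841 bp in Bry and 1316 bp in Hd2lox. The whole Hd2lox Hdac2 peak, 16104909 to 16106224, was common to all 5. These were wide peaks for their lists, and each also lay within 1000 bp of an end of the neighbouring gene Rdh10, so they cannot be given to Rpl7 alone.

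The Hdac1 lists of Bry and Hd1_loxlox and the Hdac2 list of Bry each held the same 33 members (39.3%), beside 22.1% of all protein-coding genes. Of the 25 that were in no other list, 19 belong to the large subunit (of 52) and 6 to the small (of 32). Members of this group and of those after it are named as examples, chosen after their values were seen. On the large subunit they included Rpl10a, Rpl12, Rpl13, Rpl19, Rpl21, Rpl22l1, Rpl23a, Rpl24, Rpl27, Rpl31, Rpl35, Rpl38, Rpl4, Rpl5, Rpl7l1, Rpl8, Rpl9 and Rplp2, and on the small subunit Rps12, Rps14, Rps18, Rps27a, Rps28 and Rps7. At annotated starts Rpl19 was bound in Hd2lox Hdac1 as well, and Rpl7l1 in Hd1_loxlox Hdac1 alone. A further 9 were in the same Hdac1 lists and, by gene ends, in no other list. Among them were Rpl26, Rpl27a, Rpl30, Rpl35a, Rpl7a, Rps15a, Rps2 and Rps26. At its annotated start, which lies inside the gene, Rps2 also had Hdac2 in Bry. All 3 Hdac1 lists and the Bry Hdac2 list held 4 genes, with Rplp0, Rps10 and Rps20 among them, and the 3 Hdac1 lists alone held Rpl11, Rpl23 and Rpsa. Rpl32 was in all 3 Hdac1 lists and in the Hdac2 list of Hd2lox.

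Among the genes in fewer lists, both Bry lists alone held Rpl36, Rpl37, Rpl37a and Rps9. The Bry Hdac1 list alone held Rpl22, Rpl29, Rpl34 and Rplp1, all of the large subunit. At annotated starts, some of which lie inside the gene, Rpl22 was bound in all 3 Hdac1 lists and in Bry Hdac2. The Hd1_loxlox Hdac1 list alone held Rpl28, Rps15, Rps16, Rps24 and Rps3, of which 4 are of the small subunit. Rps6, the substrate of the S6 kinases, was in the Hdac1 lists of Hd1_loxlox and Hd2lox, and Rps3a1 in these and in Hd2lox Hdac2. A single member was in the Hd2lox Hdac1 list alone.

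**Figure D3:**
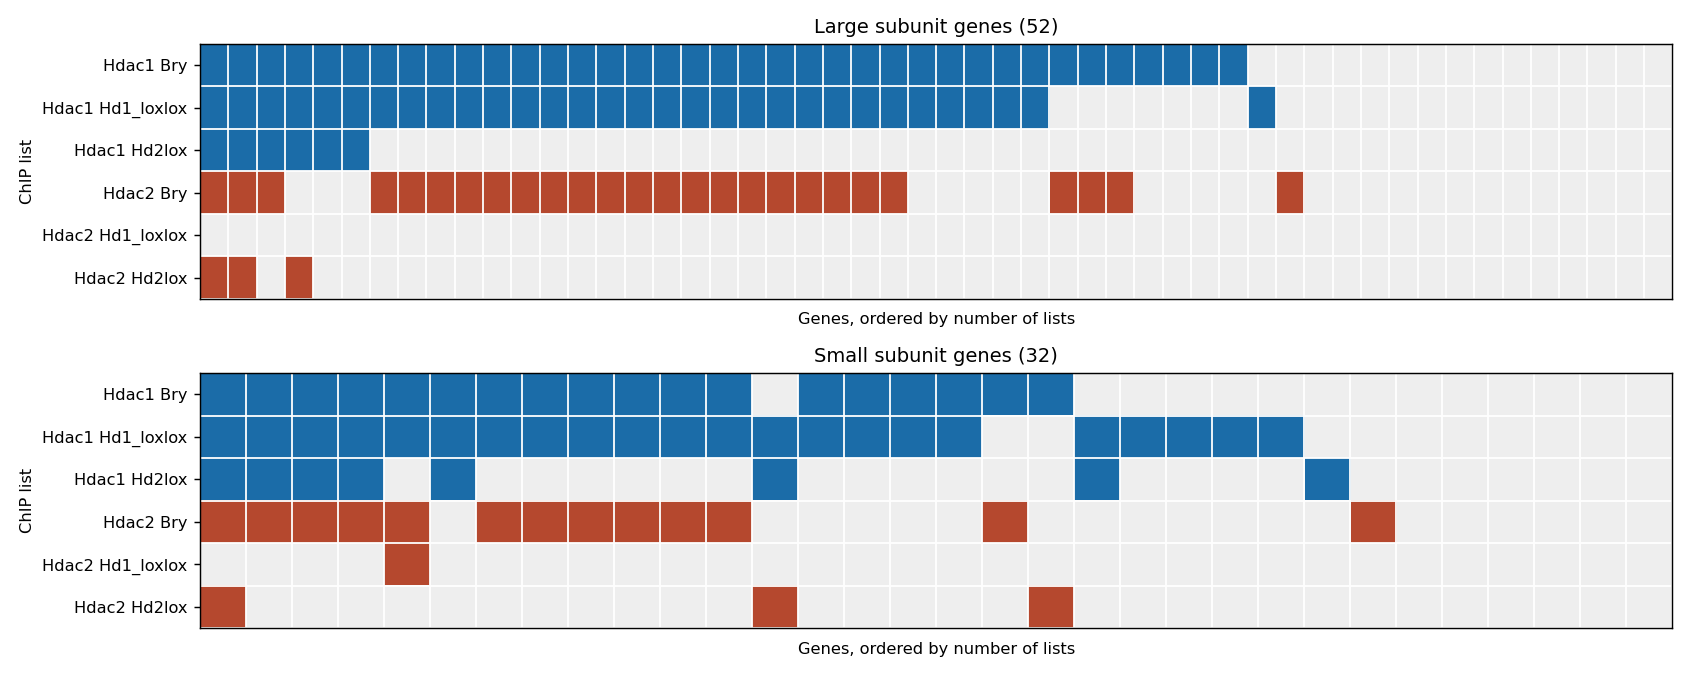
Presence of a peak at the ends of each ribosomal protein gene (columns, unnamed, ordered by number of lists) in each list (rows), for the 52 large subunit genes above and the 32 small subunit genes under them. Blue marks an Hdac1 peak, red an Hdac2 peak and grey none; the Hdac2 row of Hd1_loxlox holds 1 mark, and 13 large and 6 small subunit genes have none.

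The antibodies were also compared within a line, gene by gene. In Bry, 37 of the 39 genes bound by Hdac2 were also bound by Hdac1 (94.9%, and 67.3% of the 55 bound by Hdac1), while at other protein-coding genes these shares were 76.3% and 82.5%. In Hd2lox it was 5 of the 6 (83.3%), against 93.2% at other genes. The members with Hdac2 and no Hdac1 in the same line were Rpl18 and Rps13 in Bry and Rps23 in Hd2lox. Rps13 is a small subunit protein, and its Bry Hdac2 peak, 116333640 to 116334976 on chromosome 7, covered the start. The Rpl18 peak lay at the outer end of the annotated gene, with its midpoint -2792 bp from the annotated start. Within 1000 bp of that start, Rpl18 had Hdac1 in Bry and Hd1_loxlox and Hdac2 in Bry, so it is an exception by its outer ends only. The Rps23 peak in Hd2lox had its midpoint 2344 bp downstream of the start, past the far end of the gene, and Bry had an Hdac1 peak of 1063 bp at the Rps23 start.

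Rps25, a small subunit protein that several viral RNAs need to recruit ribosomes, was the single member of the Hd1_loxlox Hdac2 list. Its peak there ran from 44407491 to 44408495 on chromosome 9 and was 1005 bp wide. The Hdac1 peaks at Rps25 were 1908 bp wide in Bry and 2164 bp in Hd1_loxlox, and the Bry Hdac2 peak was 2009 bp wide. All 4 covered the start of Rps25 and lay within 1000 bp of an end of Trappc4 as well.

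The Hd2lox lists were then compared with the others. Hdac1 was at 46 members in both Bry and Hd1_loxlox, which is 83.6% of the 55 bound in Bry and 86.8% of the 53 bound in Hd1_loxlox, near the 79.5% and 80.1% at other genes. Of these 46, the Hdac1 list of Hd2lox held 11 (23.9%, 13.9 to 37.9%), while among all 5561 protein-coding genes bound in both it held 3185 (57.3%, 55.97 to 58.6%). The remaining 35 members came to 41.7% of the 84, beside 10.9% of all protein-coding genes with that pattern. Of the 30 large subunit genes bound in both lines 6 were also in Hd2lox (20%), as were 5 of the 16 small subunit genes (31.3%, 14.2 to 55.6%), and these intervals overlapped. The Hdac1 lists of Bry, Hd1_loxlox and Hd2lox held 7671, 7490 and 7519 peaks and bound 6989, 6934 and 5315 protein-coding genes. Hd2lox and Hd1_loxlox were at the same passages. The line and its library cannot be told apart, and the cause of the low Hd2lox share was not tested.

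Of the 14 Hdac1 peaks at members in Hd2lox, that of Rplp0 was near the limit of the window and began 972 bp beyond an end of the gene. Just inside the limit there was also Rpl22 at 980 bp, in Bry Hdac1, and just outside it were Rps27l at 1030 bp and Rpl22 at 1092 bp, both in Hd1_loxlox Hdac1. The Rpl22 and Rps27l peaks overlapped the gene itself.

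Large and small subunit genes were compared next. Neither subunit was bound more often in all lists. Hdac1 bound 37 of the 52 large subunit genes (71.2%) and 18 of the 32 small subunit genes (56.3%) in Bry. In Hd1_loxlox it bound 31 large (59.6%) and 22 small subunit genes (68.8%), and in Hd2lox 6 large (11.5%) and 8 small (25.0%). Hdac2 bound 26 large (50.0%) and 13 small (40.6%) in Bry, 0 large and 1 small in Hd1_loxlox, and 3 large (5.77%) and 3 small (9.38%) in Hd2lox.

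The share of large minus that of small subunit genes was thus positive in both Bry lists, at 14.9 points for Hdac1 and 9.38 for Hdac2, and negative in the other 4, between -13.5 and -3.13. Without the Hd1_loxlox Hdac2 list the Hdac2 mean was 2.88 points. The mean was -2.56 ± 15.3 points for Hdac1 and 0.881 ± 7.36 for Hdac2 (SD, n = 3), both far smaller than the spread between lines. The sign of the Hdac1 mean turned without Hd1_loxlox (0.721) and without Hd2lox (2.88), and that of the Hdac2 mean without Bry (-3.37). The subunits were alike in recurrence, with 30 of 52 large (57.7%) and 18 of 32 small subunit genes (56.3%) in at least 2 Hdac1 lists.

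The length of the gene ends covered by peaks was compared between the antibodies gene by gene. In 8 members all 3 Hdac1 values lay above all 3 Hdac2 values, 4 from each subunit, and in none did all Hdac2 values lie above. Of all 21887 protein-coding genes, 925 (4.23%) had Hdac1 above in this way, and 1 had Hdac2 above. With 3 lists against 3 the smallest possible exact permutation p is 0.1 (two-sided), so no gene could pass 0.05 and none did. The count over members was 13 without Bry, 8 without Hd1_loxlox and 25 without Hd2lox, and 8 without the Hd1_loxlox Hdac2 list alone. The share over all protein-coding genes was not computed with those lists left out, so these counts are not a result about the members. Among the 8, named here after their values were seen, were Rpl11, Rpl23, Rpl32, Rpl7, Rps19, Rps20 and Rpsa.

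Rpsa, a small subunit protein also known as a laminin receptor, had 1068, 1662 and 1369 bp covered by Hdac1 in Bry, Hd1_loxlox and Hd2lox, and no Hdac2 coverage in any line. Rpl23, a large subunit protein that binds Mdm2, had 1733, 1541 and 1289 bp covered by Hdac1 and none by Hdac2. Rps19 had 1443, 1750 and 1385 bp covered by Hdac1, against 1138, 0 and 784 bp by Hdac2, so that its groups did not overlap although Hdac2 was present in Bry and Hd2lox. In Rpl14 they did overlap, averaging 1327 ± 64.6 bp under Hdac1 and 714.7 ± 652.9 bp under Hdac2 (SD, n = 3; exact permutation p = 0.2).

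Peak widths at ribosomal protein genes were near those at other genes for Hdac1 and lower for Hdac2. The Hdac1 medians were 1414 bp at ribosomal protein genes and 1414 bp at other protein-coding genes in Bry, 1552.5 and 1497 bp in Hd1_loxlox, and 1468 and 1462 bp in Hd2lox. The Hdac2 medians were 1247 and 1376 bp in Bry and 792 and 890.0 bp in Hd2lox, and the single Hd1_loxlox peak of 1005 bp stands beside a median of 1092 bp. The direction of the Hdac2 gap was thus the same in all 3 lines, though Hd1_loxlox and Hd2lox rest on 1 and 6 peaks.

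Among the 5 widest mean Hdac1 peaks at members were those of Rpl7 (2490.0 bp over 3 lists), Rpl4 (2095.5 bp over 2 lists), Rpl38 (2084 bp over 2) and Rps25 (2036 bp over 2). Rpl38, a large subunit protein needed in the mouse for the translation of certain Hox mRNAs, owed its place to Hd1_loxlox, where its Hdac1 peak was 2824 bp wide, against 1344 bp in Bry. Its Bry Hdac2 peak was 822 bp wide. At Rpl4 a first peak covered the start and lay within 1000 bp of an end of Zwilch, and another lay at the far end of the gene beside Snapc5, in both Hdac1 lists and in Bry Hdac2. Of the 59 Hdac1 peaks at members in Bry, 21 also lay at an end of another protein-coding gene, as did 17 of 56 in Hd1_loxlox and 17 of the 43 Bry Hdac2 peaks.

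**Figure D4:**
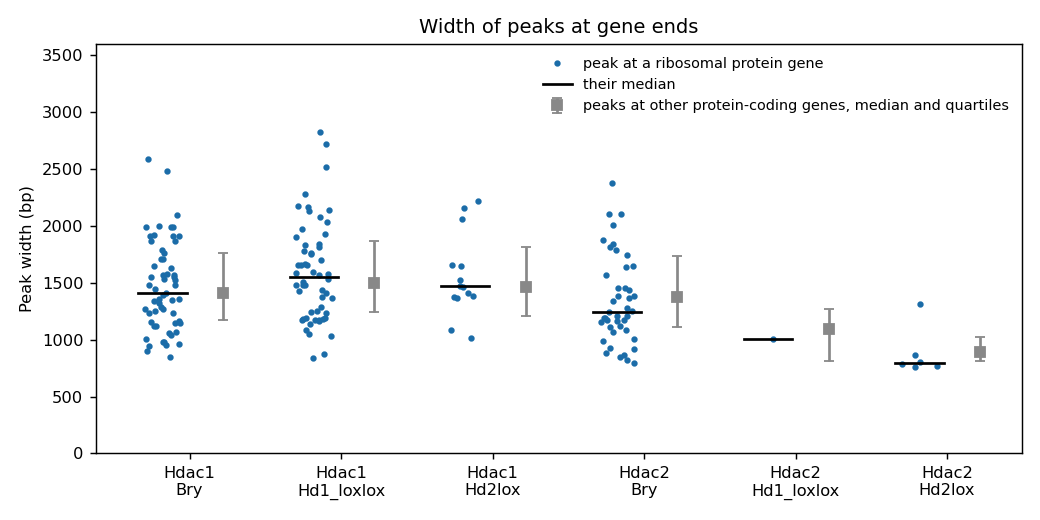
Width of each peak at a ribosomal protein gene (blue points, bp) by list, with the median of the points (black line), beside the median and quartiles of the peaks at other protein-coding genes (grey). The Hdac1 medians lie close to the grey squares, and the Hdac2 medians lie under them, as with 1247 and 1376 bp in Bry.

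The 19 genes in no list were 13 of the large subunit and 6 of the small. The large subunit genes were Rpl10, Rpl10l, Rpl13a, Rpl15, Rpl17, Rpl3, Rpl32l, Rpl36a, Rpl39, Rpl39l, Rpl3l, Rpl41 and Rpl6, and the small subunit genes included Rps21, Rps27, Rps27l, Rps29 and Rps4x. Among them were 5 of the 7 paralogues, including Rpl10l and Rpl39l, which are expressed in the testis, and Rpl3l, which is expressed in striated muscle. The other 2 paralogues, Rpl22l1 and Rpl7l1, were bound by Hdac1 in Bry and Hd1_loxlox and by Hdac2 in Bry. At its annotated start Rpl7l1 was bound in Hd1_loxlox Hdac1 alone, since its Bry peaks lay beyond the far end of the gene, beside 2310039H08Rik. Others in no list encode core proteins that every ribosome holds, such as Rpl3 and Rpl15 at the large and Rps29 at the small subunit. Their median gene length was 2705 bp, against 3269 bp for the 65 bound in any list.

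All 4 members on the X chromosome, Rpl10, Rpl36a, Rpl39 and Rps4x, were in no list. Few other genes on X were bound either, with 2.49%, 1.25% and 5.82% of 962 in the Hdac1 lists of Bry, Hd1_loxlox and Hd2lox and 4.78%, 0% and 2.49% in the Hdac2 lists. For the 19, the nearest peak of any list was 1030 bp from an end of Rps27l and 285807 bp from Rpl39, and at Rps27l and Rpl17 the nearest peak overlapped the gene. Rps27l had Hdac1 within 1000 bp of its annotated start in Bry and Hd1_loxlox, so it is in no list by its outer ends only.

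Sets of members with shared roles were also bound by Hdac1 mostly in Bry and Hd1_loxlox. Of the 21 genes linked to Diamond-Blackfan anaemia in humans, Hdac1 bound 16 in Bry (76.2%), 17 in Hd1_loxlox (81.0%) and 3 in Hd2lox (14.3%). Hdac2 bound 11 in Bry (52.4%), 0 in Hd1_loxlox and 1 in Hd2lox (4.76%), the last being Rps19. The other 63 members were bound at 61.9%, 57.1% and 17.5% by Hdac1 and 44.4%, 1.59% and 7.94% by Hdac2. The difference for Hdac1, anaemia genes minus other members, was 11.6 ± 13.7 points (SD, n = 3), within the spread between lines. At annotated starts it was 26.8, 28.0 and 1.45 points for Bry, Hd1_loxlox and Hd2lox, a mean of 18.8 ± 15.0, positive in 3 of 3 lines. It was not tested.

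Rpl5 and Rpl11, which bind 5S rRNA and, when free, the p53 inhibitor Mdm2, were both bound by Hdac1 in Bry and Hd1_loxlox. Beyond those lists, Rpl5 had Hdac2 in Bry and Rpl11 had Hdac1 in Hd2lox. The stalk genes, whose products recruit elongation factors, also differed, with Rplp0 in 4 lists, Rplp2 in 3 and Rplp1 in the Bry Hdac1 list alone. Members that host small nucleolar RNAs in their introns, 30 in number, were bound by Hdac1 in 19, 21 and 6 cases in Bry, Hd1_loxlox and Hd2lox, and the 54 without in 36, 32 and 8 cases. The difference in share for Hdac1, hosts minus other members, was 4.2 ± 7.09 points (SD, n = 3) and changed sign between lines.

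Ribosomal protein genes were last set beside other genes of the translation machinery. The 78 genes for mitochondrial ribosomal proteins were bound by Hdac1 at 52.6% in both Bry and Hd1_loxlox and at 10.3% in Hd2lox. The Hdac2 shares of the 3 lines were 53.8%, 1.28% and 1.28%. The share of cytosolic minus that of mitochondrial ribosomal protein genes was 12.9, 10.5 and 6.41 points for Hdac1, a mean of 9.95 ± 3.29 (SD, n = 3), positive in 3 of 3 lines. For Hdac2 it was -7.42, -0.0916 and 5.86 points, a mean of -0.549 ± 6.65. The 56 genes for initiation factors were bound by Hdac1 at 67.9%, 75% and 41.1%, so in Hd2lox they stood above the 16.7% of the ribosomal protein genes. Of the initiation factor genes bound by Hdac1 in both Bry and Hd1_loxlox, 19 of 33 were also bound in Hd2lox (57.6%, 40.8 to 72.8%), against 6 of 32 mitochondrial ribosomal protein genes (18.8%, 8.89 to 35.3%).

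A list of 14 other translation genes whose mRNAs carry a TOP motif, among them the elongation factor genes Eef1a1, Eef1b2 and Eef1d, was bound by Hdac1 in 12, 12 and 4 cases and by Hdac2 in 10, 0 and 1. Eef1a1 was in 4 lists, Eef1b2 in 3 and Eef1d in 1. Of 30 genes for ribosome assembly and rRNA transcription, among them Bop1, Bysl and Dkc1, Hdac1 bound 24, 25 and 8 and Hdac2 22, 2 and 5. Bop1 and Bysl were in 3 lists each and Dkc1 in none. The Hdac1 shares were 85.7%, 85.7% and 28.6% in the TOP list and 80.0%, 83.3% and 26.7% in the assembly list. Over all protein-coding genes they were 31.9%, 31.7% and 24.3%, and the Hdac2 shares 34.4%, 2.71% and 13.5%. Hdac1 thus bound the fewest genes in Hd2lox in both sets, as over all genes. For Hdac1 in Hd2lox both sets stood slightly above the share over all genes, while the ribosomal protein genes, at 16.7%, stood under it. The intervals of the TOP and assembly lists, 11.7 to 54.6% and 14.2 to 44.4%, included both of these shares. For Hdac2 in Hd2lox the TOP list, at 7.14%, stood under the share over all genes and the assembly list, at 16.7%, above it.

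**Figure D5:**
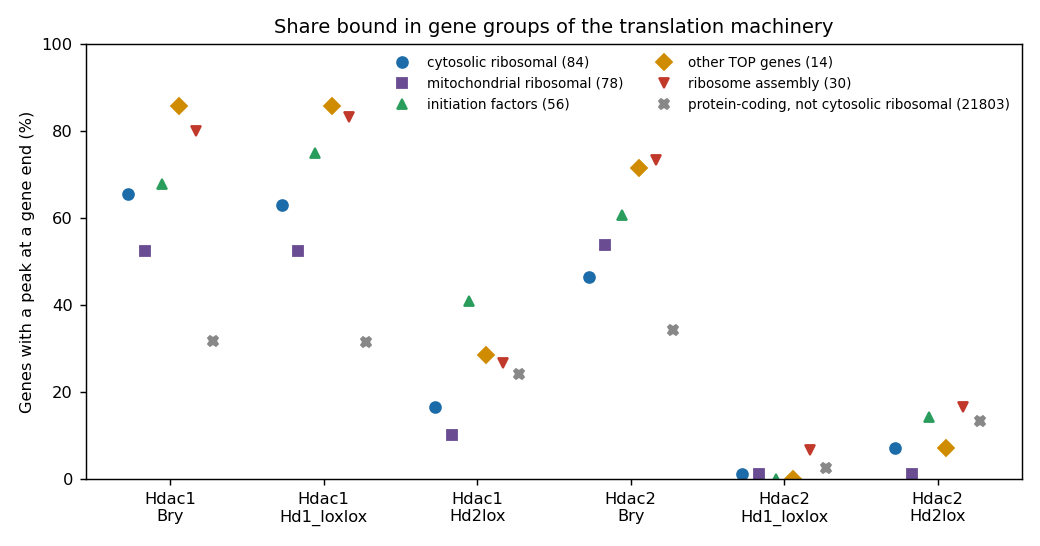
Share of genes bound (vertical axis, %) in each list (horizontal axis) for cytosolic ribosomal protein genes, 4 other sets of translation genes and all protein-coding genes outside the cytosolic ribosomal set; each mark is a single list. Cytosolic and mitochondrial ribosomal genes lie under the grey cross in both Hd2lox lists, at 16.7% and 10.3% for Hdac1, while initiation factor genes lie above it at 41.1%.

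The promoter letters were counted in the 76 RefSeq windows of 300 bp, from 250 bp before to 50 bp after the start, that belong to the 64 members with an entry, and in all 21263 windows of protein-coding genes. Each motif was sought on both strands, except the pyrimidine run, a C at the annotated start followed by pyrimidines to at least 5 letters, which was read on the strand of the gene. The ETS core CCGGAA was in 36 member windows (47.4%, against 18.7% of all windows), the YY1 core AAGATGGC in 8 (10.5%, against 3.05%) and the Sp1 box GGGCGG in 45 (59.2%, against 46.2%). The TATA box TATAAA was in 8 (10.5%, against 12.6%), and the pyrimidine run in 14 (18.4%, against 2.21%). Runs that begin after the annotated start, as at Rpl13a, are missed by this rule, so the share is not a count of TOP motifs. Motifs overlapped each other in 1 of the 76 windows.

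Bound and unbound members were set side by side, without a test. The ETS core was in 44.8% of the 58 windows of members in any list and in 55.6% of the 18 windows of members in none, and the Sp1 box in 60.3% and 55.6%. The pyrimidine run was in 17.2% and 22.2%. Split instead by Hdac1, the 42 windows of members in 2 or 3 Hdac1 lists held the ETS core in 52.4%, the Sp1 box in 64.3% and the run in 21.4%. The 34 windows of members in 0 or 1 held them in 41.2%, 52.9% and 14.7%, so the direction depended on the split. Windows of bound members had a median of 23 CpG pairs, against 17 for members in no list and 13 for all windows. A match of letters is a description and not a site of binding.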

How the data were processed

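ChIP-seq peak lists of 6 libraries (Hdac1 and Hdac2 in 3 lines) were used, leaving the 3 input libraries, which were not analysed here. Per the submitters' processing notes, the tools were bcl2fastq, Bowtie2 2.2.9, SAMtools 1.3.1 and MACS2 2.1.1.20160309, on mm10. The peak threshold, the MACS2 mode and any use of input: not given in the sources used here. What the authors deposited were peak positions (chromosome, start and end), with no score, signal or count, and 1 list per library. Depth is therefore unknown. Positions are given 1-based.

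Gene ends came from a RefSeq table of GRCm38.p6, the assembly of mm10, and starts and promoter sequences from RefSeq windows, which hold 64 of the 84 members. Peaks were intersected with windows of 1000 bp in Python 3.11.15 (pandas 2.3.3, numpy 2.4.6, scipy 1.17.1). Shares have 95% Wilson intervals. Hdac1 and Hdac2 coverage was compared per gene over all 21887 protein-coding genes by exact two-sided permutation of 3 lists against 3, and the code was tested on simulated data. Differences in share between the antibodies were taken within each line, since the labels of its libraries name the same cell line. The permutation did not pair lists by line, and pairing was an alternative. No test was run over the members as a set.

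Named were the members in 5 or 6 lists, in none, with the 5 widest mean Hdac1 peaks, with Hdac2 but no Hdac1 in the same line, and in the Hd1_loxlox Hdac2 list, and alphabetical examples of other sets; a few of these genes are counted but not reported by name here, and other names were chosen after their values were seen. The members and all gene lists were chosen with earlier results of these data known. Alternatives were other windows, overlap rules, peak widths and lists.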

Additional observations from a re-analysis of the deposited data

Results flagged for a closer look

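The share of ribosomal protein genes bound, minus that of other protein-coding genes, moved in opposite directions in Bry and Hd2lox. Both Bry lists were above 0 (33.7 points for Hdac1 and 12.1 for Hdac2, mean 22.9) and both Hd2lox lists under it (-7.65 and -6.34, mean -6.99). The Bry mean minus the Hd2lox mean was 29.9 points. This difference was not tested, and Bry and Hd2lox differ in passage as well as in line.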

How the results depend on the processing

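Of the recomputed values of the 8 main results, 68 did not reverse and moved by less than the spread between lines (counts by less than 1.5 times), 11 moved further and 8 reversed. With peaks of at least the median width of their list, 20 members were in at least 2 Hdac1 lists and 1 in at least 2 Hdac2 lists, the Hdac2 difference between members and other genes was -1.97 points, and 3 members had Hdac1 coverage above all Hdac2 coverage. That coverage count was 5 with windows of 250 bp and 5 with starts only. The large minus small subunit difference for Hdac1 was 1.12 points with windows of 2000 bp, and that for Hdac2 was -1.04 when the midpoint had to lie in the window and -0.556 at starts only. The causes were not tested. Leaving out each line in turn, which then asks for both remaining lists, gave 11 to 46 members in at least 2 Hdac1 lists and 0 to 3 in at least 2 Hdac2 lists. It gave -3.94 to 5.27 points for the Hdac2 difference between members and other genes, -11.3 to 2.88 for the Hdac1 and -3.37 to 3.13 for the Hdac2 subunit difference, and 8 to 25 members in the coverage count. For the coverage counts under these alternatives, the share over all genes was not computed. With the replicate block, pairing by line, 9 of the 84 members had Hdac1 coverage above Hdac2 coverage in each line. Of all 21887 protein-coding genes, 1697 had Hdac1 above in this way. The mean difference in share stayed at 30.2 points. No paired p was computed per gene, since with 3 pairs the smallest possible sign-flip p is 0.25. Per list, alternatives added after seeing the data left the sign of each difference between members and other genes as it was. With wide peaks the Bry differences were 17.99 points for Hdac1 and 2.86 for Hdac2, against 33.7 and 12.1 with all peaks. Without peak heights or read depth, absence of a peak limits every count.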

Other observations

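Some genes for ribosomal proteins that the naming rule left out were bound as follows. Rpl36al was in all 3 Hdac1 lists and in Bry Hdac2. Rack1 was in 2 lists, and Fau in the Hd2lox Hdac1 list alone.

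Pseudogenes named for ribosomal proteins, most of them copies of mRNAs that lie without a promoter, carried few peaks. Of 318 in the RefSeq table, the Bry, Hd1_loxlox and Hd2lox lists held 0, 1 and 0 for Hdac1 and 1, 3 and 4 for Hdac2. Of 10105 other pseudogenes, Hdac1 lists held 0.663%, 0.524% and 1.13%, and Hdac2 lists 0.851%, 0.95% and 1.65%. Among the ribosome assembly genes Rrs1, named here after its values were seen, was in all 6 lists, which no ribosomal protein gene was.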
